A study of Mus musculus with 9 samples.

Results

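The 10 circadian clock genes Per1, Per2, Per3, Cry1, Cry2, Clock, Nr1d1, Nr1d2, Dbp and Ciart were taken by symbol from the 55487 genes of the count table of a retinal explant experiment, and all 10 were among the 21049 genes with enough counts to be tested. The experiment comprised 5 control and 4 treated RNA-seq libraries, the treatment being 2-deoxy-D-glucose (2-DG), a glucose analog that blocks glycolysis. Every retina was taken from a wild-type mouse of the C57BL/6J strain on postnatal day 28. They were dissected 2 h after the lights came on, freed of the sclera and the retinal pigment epithelium, and kept for 48 h in Neurobasal-A medium with 5 mM glucose (control) or with 5 mM glucose and 20 mM 2-DG (2-DG), followed by 1 h in Krebs' Ringer medium in both groups. The submitters call the libraries biological replicates of 1 batch without saying which animals or cultures each came from, so p-values measure the spread between these libraries. Both groups were therefore sampled at a single time after dissection, and no library was taken at another clock time. An explant has lost its optic nerve and its pigment epithelium, and each library holds RNA of all retinal cell types together, so fewer cells of a type and less RNA per cell cannot be told apart.

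The circadian clock is a feedback loop of transcription. CLOCK pairs with BMAL1 (the product of Arntl), or NPAS2 takes its place, and the pair switches on genes that carry E-box elements, among them Per, Cry, Nr1d, Dbp and Ciart. PER and CRY proteins then shut down the CLOCK-BMAL1 pair, and the REV-ERB receptors made from Nr1d1 and Nr1d2 repress Arntl, Clock and Npas2, so that in a running clock Arntl and the E-box genes peak at opposite times. The mammalian retina has its own clock, which keeps running in culture. The comparisons below ask whether 2-DG changed the level of these genes, and whether the E-box genes ran opposite to Clock from library to library.

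Sequences just upstream of the transcription starts are shown because the clock acts on its targets through short elements there. RefSeq promoter windows on GRCm38.p6, each of 300 bases with 250 before and 50 after the start, were found for 9 of the 10 members (12 windows). Per2 had none. The letters searched on both strands were the E-box CACGTG, the E-prime-box CACGTT, the D-boxes TTATGTAA and TTACGTAA that bind DBP and its relatives, the ROR element TAGGTCA that binds ROR and REV-ERB receptors, and the cAMP element TGACGTCA. None of these letter strings contains another. Matches upstream of the start occurred in 6 members, and 5 of them carried CACGTG or CACGTT. The stretches run 5′ to 3′ on the strand of the gene, the capitals mark the matches on either strand (AACGTG is CACGTT on the other strand), and positions count from the base before the start, which is -1.
Per1, plus strand, chr11:69098763-69098803, match at -166: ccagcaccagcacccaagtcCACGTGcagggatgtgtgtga
Per3, minus strand, chr4:151044801-151044890, matches at -205 and -158: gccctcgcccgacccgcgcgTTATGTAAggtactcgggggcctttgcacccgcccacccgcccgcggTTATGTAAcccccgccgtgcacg
Cry1, minus strand, chr10:85185094-85185153, matches at -79 and -60: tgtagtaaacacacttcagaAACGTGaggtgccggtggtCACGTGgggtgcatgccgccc
Cry2, minus strand, chr2:92434215-92434255, match at -166: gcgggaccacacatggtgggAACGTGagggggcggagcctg
Nr1d1, minus strand, chr11:98775385-98775425, match at -28: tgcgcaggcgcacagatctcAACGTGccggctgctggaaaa
Ciart, minus strand, chr3:95882252-95882364, matches at -116, -58 and -44: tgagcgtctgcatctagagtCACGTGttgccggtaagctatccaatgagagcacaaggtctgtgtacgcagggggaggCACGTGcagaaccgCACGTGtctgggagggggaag
CACGTG was present in 7.15% of all 32851 promoter windows, CACGTT in 4.68%, TTATGTAA in 0.938%, TTACGTAA in 0.119%, TAGGTCA in 2.61% and TGACGTCA in 1.79%. Ciart was the member with 3 E-boxes, and Per3 carried 2 D-boxes and neither E-box form. The windows of Clock, Nr1d2 and Dbp and the second window of Per1 held none of the searched strings. For the activators outside the member list, TAGGTCA stood at 30 in the second of the Arntl windows, after the start, and the Npas2 window held no match. Such matches are letters in a window, not shown to be bound sites.

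Depth and the summed levels of cell type markers differed between libraries within both groups. Totals ran from 11317734 to 51802249 estimated counts, which gave every member at least 781 counts in every library, so counting error was small beside the spread between libraries. In control replicate 2, control replicate 5 and 2-DG replicate 4, mitochondrial genes took 10.7%, 9.97% and 13.6% of counts, against at most 6.68% in the other 6. The summed CPM (counts scaled to the TMM-normalized library size) of 8 bipolar cell markers was 525, 164 and 334 in these 3 libraries and between 991 and 3080 in the others. All markers listed for neurons and glia of the retina were detected well enough to be tested. The sum of 10 rod markers ran from 5160 to 44500 CPM in control, highest in replicate 2, and from 7840 to 17200 CPM in 2-DG. That of 8 Müller glia markers was 1490, 3560, 1700, 3960 and 6570 CPM in control and 620, 875, 2960 and 1940 CPM in 2-DG, so the lowest values were those of 2-DG replicates 1 and 2 while the groups overlapped. Vascular markers (6 genes) summed to 326 to 2000 CPM in control and 457 to 2500 CPM in 2-DG, highest in 2-DG replicate 4. Cone (8 genes) and ganglion cell (8 genes) markers peaked at 779 CPM in 2-DG replicate 3 and 1510 CPM in control replicate 2. Amacrine, horizontal and microglial markers reached at most 990, 334 and 90.8 CPM, and the pigment epithelium and lens lists at most 74.7 and 11.8 CPM, with Rpe65, Lrat, Tyr, Crygd, Mip and Lim2 too low to be tested. Their part in the results below was not tested beyond the fits without these libraries.

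None of the 10 clock genes passed the test of 2-DG against control. By edgeR's quasi-likelihood test, 0 of 10 reached an adjusted p of 0.05 (Benjamini-Hochberg over all genes), as did 0% of all genes tested. At an unadjusted p under 0.05 the count was also 0 of 10, against 7.25% of all genes. DESeq2 called 0 of the 10 at either threshold, against 1.35% and 10.3% of all genes, and limma-voom with quality weights called 0 at the adjusted and 1 (Clock) at the unadjusted threshold, which 26% of all genes passed in that fit. The 2-DG mean was higher for 5 members and lower for 5, with a median log2 fold change of -0.02, beside a median of -0.01 over all genes and 49.2% of genes higher. In no member did the 2-DG and control values stay apart, a separation that 2.93% of all genes showed. The estimated biological coefficient of variation was 51.5%, and the 95% intervals of the members' log2 fold changes reached from -1.21 (Ciart) to 1.41 (Clock), so changes within such intervals were not detectable here. In simulated data the edgeR fit called 65% of log2 changes of size 2 after adjustment, and 98% of size 3.

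**Figure D1:**
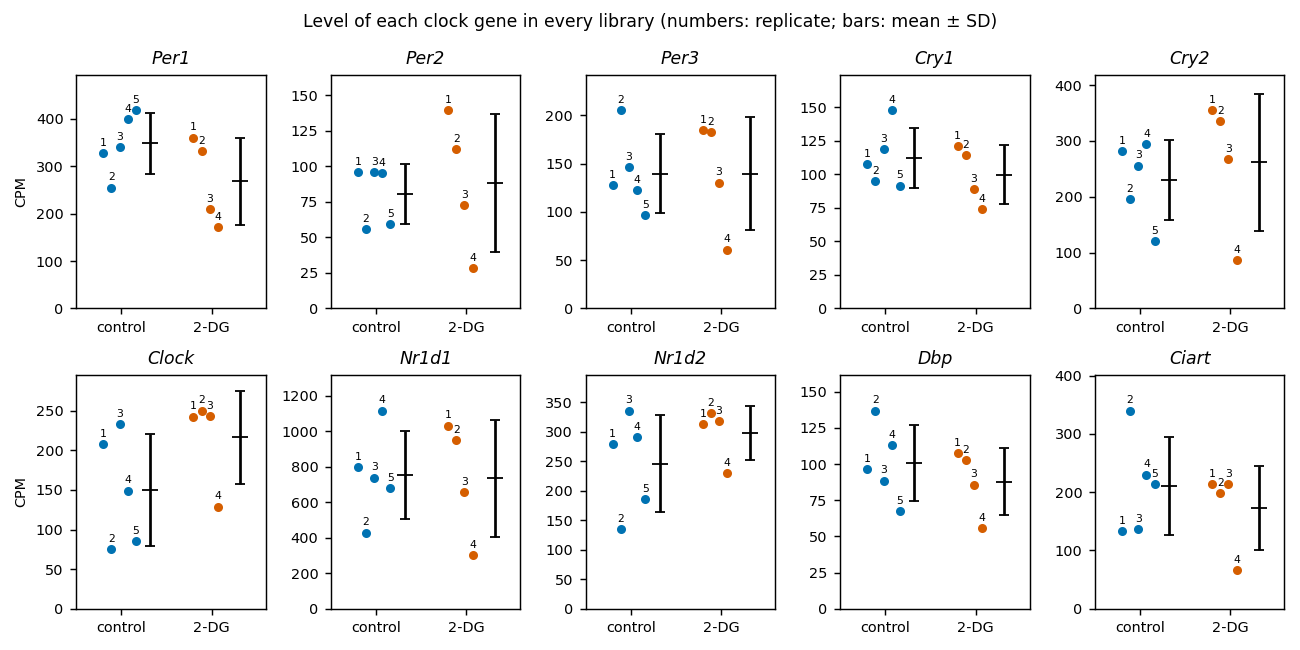
Level of each clock gene in CPM (vertical axis, from 0) in the 5 control (blue) and 4 2-DG (orange) libraries, numbered by replicate, with the group mean and SD in black. The 2 groups overlap for every gene, and 2-DG replicate 4 is the lowest 2-DG library in all 10 panels.

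The Period genes encode the PER proteins, which carry CRY into the nucleus and repress CLOCK-BMAL1. Per1 (ENSMUSG00000020893, chr11:69095217-69109960) was measured at 328, 255, 340, 400 and 418 CPM in control replicates 1 to 5 and at 360, 333, 209 and 172 CPM in 2-DG replicates 1 to 4. The 2-DG replicates 3 and 4 lay below every control, while 2-DG replicates 1 and 2 fell inside the control range. Over all 9 libraries Per1 had the most negative log2 fold change of the members, -0.37 ± 0.28 (SE), with a 95% interval (t distribution on 7 residual degrees of freedom) from -1.03 to 0.29 and an adjusted p of 0.801 by edgeR. That rank went to Ciart in some alternatives, as without 2-DG replicate 3 (-0.40 for Ciart, -0.27 for Per1). Per2 (ENSMUSG00000055866, chr1:91415982-91459324) stood at 96.1, 55.9, 96.0, 95.2 and 59.5 CPM in control and at 140, 112, 72.9 and 28.3 CPM in 2-DG. The 2-DG libraries thus held both the highest and the lowest Per2 value of the experiment, 4.92-fold apart, and the controls stood high in replicates 1, 3 and 4 and low in replicates 2 and 5. Its log2 fold change was 0.13 ± 0.40 (95% interval -0.82 to 1.08), turning to -0.17 without 2-DG replicate 1. Per3 (ENSMUSG00000028957, chr4:151003652-151044665) gave 128, 205, 146, 122 and 96.4 CPM in control and 184, 183, 130 and 60.9 CPM in 2-DG. The group means were both 140 CPM (SD 40.8 and 58.2), the log2 fold change was 0.00 (95% interval -0.80 to 0.80; -0.15 without 2-DG replicate 1 and 0.25 without 2-DG replicate 4), and control replicate 2 was the highest of all, although it was the lowest control for Per1 and Per2. Per3 lies on the same strand as, and within, the much larger gene Camta1, whose unspliced reads could enter its count.

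The Cryptochromes encode the other arm of the repressor complex. Cry1 (ENSMUSG00000020038, chr10:85131700-85185064) was the steadiest member, at 108, 94.9, 119, 148 and 91.6 CPM in control and 121, 114, 89.3 and 74.2 CPM in 2-DG, a 1.99-fold range over all 9 libraries. Its groups overlapped, with 2-DG replicates 3 and 4 below every control, and the log2 fold change was -0.17 ± 0.23 (95% interval -0.71 to 0.37). Cry2 (ENSMUSG00000068742, chr2:92403646-92434043) was at 282, 196, 256, 294 and 121 CPM in control and 355, 336, 268 and 87.0 CPM in 2-DG. 2-DG replicates 1 and 2 exceeded every control and 2-DG replicate 4 was below every control, so the log2 fold change of 0.19 had an SE of 0.40 (95% interval -0.77 to 1.14), and it was 0.01 without control replicate 5 or without 2-DG replicate 1. The opposite-strand gene D930015M05Rik overlaps Cry2 over 23417 bases, and whether strand was used in the counting is not given in the sources used here.

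Clock showed the largest log2 fold change in size of the 10 over all 9 libraries, a rank that did not hold in every alternative. Per1 was larger in size without 2-DG replicate 1 (-0.54 against 0.47 for Clock) and with 2 surrogate variables (-0.51 against 0.32), among others. Clock (ENSMUSG00000029238, chr5:76209868-76304792), the DNA-binding partner of BMAL1, was at 208, 75.2, 233, 149 and 85.2 CPM in control and at 242, 250, 244 and 129 CPM in 2-DG. 2-DG replicates 1 to 3 lay close together and above every control, and 2-DG replicate 4 lay between control replicates 5 and 4. The mean was 216 CPM ± 58.4 (SD, n = 4) in 2-DG and 150 CPM ± 70.9 (SD, n = 5) in control, a log2 fold change of 0.53 ± 0.37 (95% interval -0.35 to 1.41). Its p was 0.186 and its adjusted p 0.79 by edgeR's quasi-likelihood test, the smallest of the members. Over 19 alternative fits the log2 fold change of Clock stayed between 0.32 and 0.74 and its adjusted p between 0.171 and 0.987, with an unadjusted p under 0.05 in 2 of them (limma-voom, 0.0398, and 2 surrogate variables, 0.0273), fits in which 26% and 19.8% of all genes were under that threshold. Without 2-DG replicate 4 the groups of Clock no longer overlapped, at a log2 fold change of 0.71 and an adjusted p of 0.446 by edgeR, and 9.25% of all genes did not overlap in that set. The 3 libraries lowest in Clock were those with the high mitochondrial share and the low bipolar sum. Without all 3, Clock was at 149 to 233 CPM in 3 controls and 242 to 250 CPM in 3 2-DG libraries, with a log2 fold change of 0.33 ± 0.19 and an adjusted p of 0.516 by edgeR. Leaving out the lowest libraries in part fixes such a gap, and 20.4% of all genes did not overlap in that set.

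Arntl and Npas2, the partner of CLOCK and its stand-in, did not pass the test either, and whether they differed from Clock in their response was not tested. Arntl (Bmal1), the obligate partner, was among the most even genes of the set, at 108, 133, 133, 131 and 112 CPM in control and 117, 134, 90.3 and 105 CPM in 2-DG. The groups overlapped and the log2 fold change was -0.15 ± 0.19 (95% interval -0.59 to 0.30), and it was -0.05 when 2-DG replicate 3 was left out and -0.24 when 2-DG replicate 2 was. The within-group SD of Arntl on the log2 scale, 0.194, was larger than that of 3.5% of all genes, whereas the SD of Clock, 0.636, was larger than that of 51.9%. Npas2, the stand-in for CLOCK in the forebrain, was at 7.31, 1.29, 5.57, 4.24 and 1.74 CPM in control and 5.01, 5.35, 5.43 and 2.52 CPM in 2-DG. It was lowest in the same 3 libraries as Clock, its groups overlapped, and its log2 fold change was 0.18 ± 0.52 (95% interval -1.06 to 1.42). It turned to -0.04 without control replicate 2, -0.02 without control replicate 5 and -0.11 without the 3 libraries of highest mitochondrial share, and it was 0.51 without control replicate 1.

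The REV-ERB receptors repress Arntl, Clock and Npas2. Nr1d1 (ENSMUSG00000020889, chr11:98767932-98775333), which encodes REV-ERB alpha, was the most abundant member per length of exon, at 245 ± 80.6 (SD) CPM per kilobase in control. Its libraries stood at 800, 429, 739, 1117 and 679 CPM in control and at 1032, 949, 660 and 301 CPM in 2-DG. The highest library was control replicate 4 and the lowest 2-DG replicate 4, the groups overlapped, and the log2 fold change was -0.03 ± 0.39 (95% interval -0.96 to 0.89), turning to 0.23 without 2-DG replicate 4 and 0.13 without control replicate 4, while it was -0.23 without 2-DG replicate 1. Nr1d1 shares 1075 bases at its 3′ end with Thra on the opposite strand. Nr1d2 (ENSMUSG00000021775, chr14:18204054-18239127), which encodes REV-ERB beta, was at 280, 136, 336, 291 and 186 CPM in control and 313, 332, 318 and 230 CPM in 2-DG. Its low libraries were those low in Clock, its groups overlapped, and the log2 fold change was 0.28 ± 0.29 (95% interval -0.40 to 0.96), a value that was 0.12 without control replicate 2, 0.42 without control replicate 3 and 0.09 without the 3 libraries of highest mitochondrial share.

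Dbp and Ciart are outputs of the E-box arm. DBP is a PAR bZIP factor that activates D-box genes, and CIART (CHRONO) is a repressor of CLOCK-BMAL1. Dbp (ENSMUSG00000059824, chr7:45705088-45710203) was at 96.6, 137, 88.6, 113 and 67.4 CPM in control and 108, 103, 85.8 and 55.7 CPM in 2-DG. Control replicate 2 was highest and 2-DG replicate 4 lowest, the groups overlapped, and the log2 fold change was -0.19 ± 0.27 (95% interval -0.82 to 0.43). Ciart (ENSMUSG00000038550, chr3:95878503-95882251) was at 134, 340, 137, 230 and 213 CPM in control and 214, 199, 214 and 66.3 CPM in 2-DG. It had the widest range of the members, 5.13-fold from 2-DG replicate 4 to control replicate 2, and its groups overlapped, with 2-DG replicates 1 to 3 at 199 to 214 CPM near the middle of the control range. The log2 fold change was -0.28 ± 0.39 (95% interval -1.21 to 0.65). The antisense gene C920021L13Rik covers all 3749 bases of Ciart, and 737 bases of Dbp overlap Sphk2 on the other strand.

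Per kilobase of exon, control levels ordered the members as Nr1d1 (245 CPM per kilobase), Ciart (93.2), Per1 (61.8), Nr1d2 (45.4), Cry2 (36.3), Dbp and Cry1 (both 33.6), Per3 (14.5), Per2 (13.8) and Clock (10.9). The means of Cry2, Dbp and Cry1 lay within their SDs (11.4, 8.75 and 6.81) of each other, as did those of Per3, Per2 and Clock (4.24, 3.56 and 5.16), whereas Nr1d1 lay apart from Ciart by more than the SD of either gene.

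The fold changes moved when single 2-DG libraries were left out, their median most without 2-DG replicate 4. In that library all 10 members were below the mean of their group, by a median of -0.88 on the log2 scale, and from -1.41 (Per2) to -0.36 (Nr1d2). In 2-DG replicates 1 and 2 none was below the group mean, with median deviations of 0.47 and 0.36. The share of all genes below the group mean in each library was not counted, so these counts are not read as particular to the members. On the first principal component, the axis of largest spread between libraries, 2-DG replicate 4 scored 101. The other 2-DG libraries scored -80, -55.7 and -69.9. Without 2-DG replicate 4 the median log2 fold change of the members moved from -0.02 to 0.24, with 6 of 10 higher, while the median of all genes was -0.05 and 46.5% of genes were higher. Without 2-DG replicate 1 or 2 the median was -0.20 or -0.17, with 3 of 10 higher in each case. Without 2-DG replicate 4, Per2 (0.42) and Cry2 (0.48) moved most, still without a call (0 of 10 at an unadjusted p under 0.05, against 12.9% of all genes). Per1 (-0.21), Cry1 (-0.05), Dbp (-0.03) and Ciart (-0.01) were the members that remained below 0. Vascular markers summed to 2500 CPM in this library and to at most 1010 CPM in the other 2-DG libraries, and its bipolar sum of 334 CPM compares with at least 1720 CPM there.

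**Figure D2:**
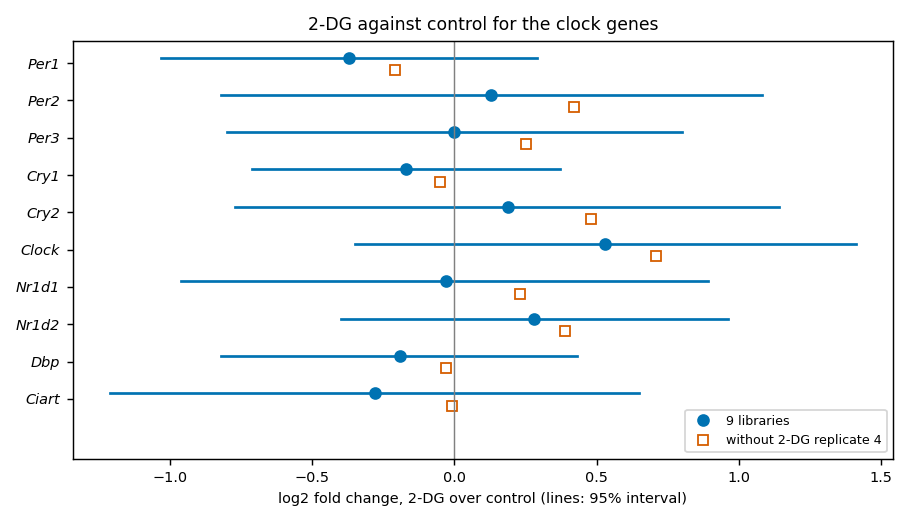
Log2 fold change of 2-DG over control (horizontal axis) for the 10 clock genes, from all 9 libraries with the 95% interval (blue) and without 2-DG replicate 4 (orange squares). Every blue interval crosses 0, and without that library all 10 values move to the right.

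The second question was whether Per, Nr1d, Dbp and Ciart ran opposite to Clock across libraries. It was examined on deviations of log2 CPM from the group mean, so that a difference between the groups could not enter. In CPM, 2-DG replicate 4 (129) lay nearer to control replicate 4 (149) than to control replicates 2 and 5 (75.2 and 85.2). On the deviations the libraries fell into separate sets by Clock, a gap that the centring in part makes. Control replicate 2, 2-DG replicate 4 and control replicate 5 deviated by -0.85, -0.70 and -0.67, and the other 6 by 0.13 to 0.78. A correlation with Clock over all 9 therefore mostly compares 3 libraries with 6, and only counts are given for it. The sign was opposite to that of Clock in 1 of the 7 genes (Ciart), and 2 of the 7 (Per2 and Nr1d2) passed in the positive direction by an exact permutation test within groups (2880 arrangements, adjusted over 66 pairs of the members, Arntl and Npas2). Both results depended on single libraries. The number of opposite signs was 0 when control replicate 1, 2 or 3 was left out, 2 without control replicate 5 and 3 without 2-DG replicate 4. No pair with any gene passed the adjustment when any one of control replicates 3 to 5 or of the 2-DG libraries was left out, the smallest p of the test then being larger. Of all genes tested, 49.4% had the opposite sign to Clock and 17.5% had an r with Clock of at least 0.7.

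**Figure D3:**
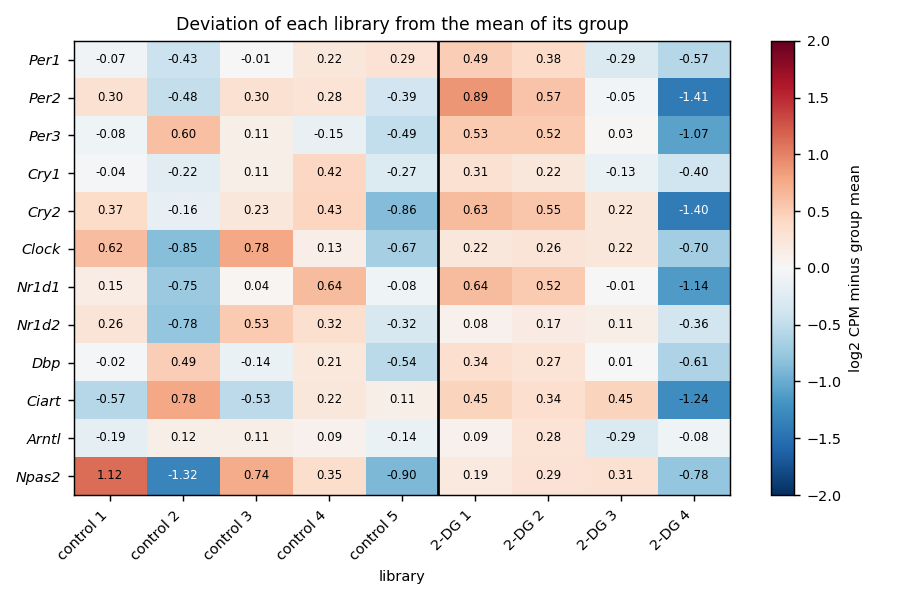
Deviation of log2 CPM from the group mean for the clock genes, Arntl and Npas2 (vertical) in each library (horizontal), red above and blue below the mean. The column of 2-DG replicate 4 is blue for all 10 members, Clock, Nr1d2 and Npas2 share low values in control replicates 2 and 5, and Arntl deviates by at most 0.29 in either direction.

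Among the 6 libraries of low mitochondrial share, a set chosen after the data had been seen, the signs were different. Pearson's r with Clock was -0.96 for Ciart, -0.70 for Dbp, -0.66 for Nr1d1 and -0.29 for Per1, but 0.02 for Per2, 0.38 for Per3 and 0.53 for Nr1d2, so 4 of the 7 ran opposite. Spearman's rho was -0.94, -0.66, -0.66, -0.37, 0.09, 0.14 and 0.43 for the same genes in that order. Over the 36 arrangements within groups the exact permutation test gave p from 0.0833 (Dbp) to 0.806 (Per2), the value for Ciart being 0.194, and the lowest adjusted p with Clock was 0.423. The smallest p this test can give is 0.0278. In these 6 libraries Clock spanned only 242 to 250 CPM in 2-DG, so the relation rested on 3 controls. Of these, control replicate 4 had the least Clock (149 CPM) and the most Nr1d1 (1117 CPM), Ciart (230 CPM), Dbp (113 CPM) and Per1 (400 CPM), whereas replicates 1 and 3 had Clock at 208 and 233 CPM and Ciart at 134 and 137 CPM. Over the same 6 libraries 50.4% of all genes had the opposite sign to Clock. Pearson's r with Arntl over all 9 libraries was 0.40, 0.36 and 0.53 for Per1, Per2 and Per3. It was 0.28 and 0.07 for Nr1d1 and Nr1d2, 0.52 for Dbp and 0.26 for Ciart. In the 6 libraries the values were 0.83, 0.67, 0.80, 0.65, 0.48, 0.56 and 0.15 in that order. No pair with Arntl passed the adjustment in either set, and within the 5 controls r ran from -0.34 (Per1) to 0.63 (Per3).

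**Figure D4:**
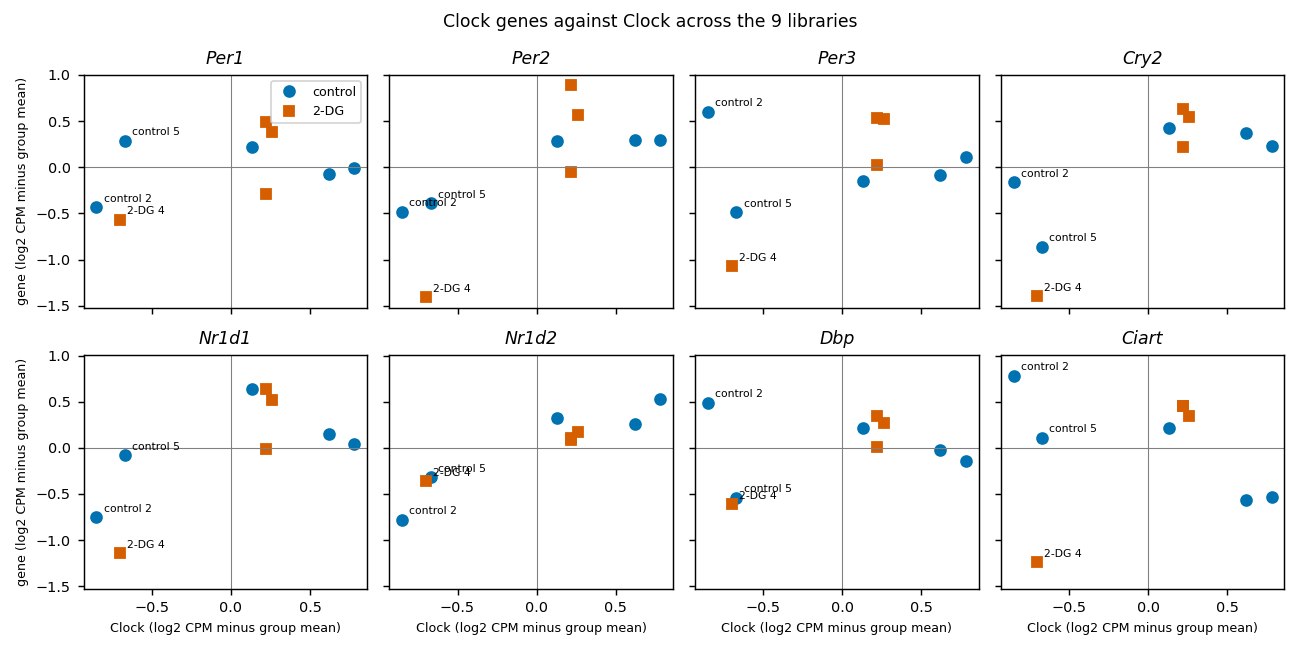
Deviation of 8 clock genes (vertical) against that of Clock (horizontal), both as log2 CPM minus the group mean, for 5 control (circles) and 4 2-DG (squares) libraries, with the 3 libraries low in Clock named. Nr1d2 is below its group mean in the 3 libraries low in Clock, while Ciart is high in control replicate 2 (0.78) and low in 2-DG replicate 4 (-1.24), both of which are low in Clock.

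The other 9 members were compared with each other in the same way, and the signs of their pairs depended on 2-DG replicate 4, where all were low. Of their 36 pairs, 35 had a positive r of the deviations over 9 libraries, with a median of 0.65, beside 49.9% of all gene pairs. Without 2-DG replicate 4 the count was 24 of 36, with a median of 0.36. Within the 5 controls alone 20 of 36 were positive, within the 4 2-DG libraries 36 of 36, and in the 6 libraries above 28 of 36. Of the 66 pairs tested, which include Clock, Arntl and Npas2, 12 passed by Pearson's r and 3 by Spearman's rho at an adjusted p of 0.05. The share of all gene pairs that would pass was not computed, so these calls are not read as particular to clock genes. Of all genes, 17.5% had an r with Clock of at least 0.7 and 16.3% of at most -0.7. With Dbp the shares were 7.89% and 8.51%. The 12 fell to 7 without control replicate 1, to 3 without control replicate 2 and to 0 without any other single library, where the smallest p the test can give also rises. Cry1 with Nr1d1 passed by both, with r = 0.89 (exact permutation p = 0.00313, adjusted 0.0393) and rho = 0.95 (p = 0.00208, adjusted 0.0458). So did Cry1 with Cry2, with r = 0.84 (exact permutation p = 0.00139, adjusted 0.0393) and rho = 0.93 (p = 0.00139, adjusted 0.0458). Cry2 with Nr1d1 passed by rho alone (0.97, exact permutation p = 0.00104, adjusted 0.0458), its r being 0.83 (adjusted 0.117). Without the 2 libraries farthest from the median of the first gene, r was 0.73, 0.75 and 0.97. In the 6 libraries above, r was 0.94 for Cry1 with Nr1d1, 0.79 for Cry1 with Cry2 and 0.91 for Cry2 with Nr1d1, and 0 of 66 pairs passed the adjustment, 4 having an exact permutation p under 0.05. The promoters of Cry1, Cry2 and Nr1d1 share CACGTT, read on the other strand in each, a description made after their values were known. Per3 with Dbp passed by r alone (r = 0.90, rho = 0.85, exact permutation p = 0.00382 and 0.0139, adjusted 0.0393 and 0.115), with r of 0.68 without the 2 libraries farthest from the median and 0.34 in the 6 libraries (exact permutation p = 0.639).

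By likeness of deviations over the 9 libraries, the protein-coding genes closest to Clock were Alg11, Setd5, Alg10b, Rictor and Zfp280c. Since the 9 libraries split by Clock, only their r with Clock in the 6 libraries is given, 0.93 to 0.98. Those closest to Dbp over the 9 were Npas4, an activity-induced transcription factor (r = 0.988), Prlhr, Meis1, Rtn4r and Ppm1j (down to 0.946), with r from 0.72 to 0.98 in the 6 libraries. Each was the top of 21048 genes ranked, so a high r was assured for them.

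At the level of transcripts no call was made for the members or for any other gene, so this adds nothing to the result by gene. In simulated data the transcript fit recovered 1% of log2 changes of size 2 and 6% of size 3, so it could hardly make a call. Of 44 annotated transcripts of the members, 38 were tested among 62900, and 0 reached an adjusted p of 0.05 or an unadjusted p under 0.05 by edgeR (0% and 3.45% of all transcripts). A single transcript took most of the counts of Per2 (Per2-201, 100%), Cry1 (Cry1-201, 99.4%), Nr1d1 (Nr1d1-201, 98.9%), Cry2 (Cry2-201, 96.8%) and Nr1d2 (Nr1d2-201, 90.9%). Per1-201 took 71.8%, Clock-205 took 65.8%, Ciart-201 took 58.0%, Dbp-204 took 42.4% and Per3-201 took 42.4%. The log2 fold change of Clock-205 was 0.23 ± 0.26, less than that of the gene, and Nr1d2-201 was at 0.03 ± 0.23. Per1-201 was at -0.45 ± 0.25, and its range of 145 to 245 CPM in 2-DG overlapped the 221 to 314 CPM of the controls.

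The other genes of the clock pathway gave no call by edgeR either. Of 44 genes listed by role, all were tested and 0 reached an adjusted p of 0.05, while DESeq2, limma-voom and the fit with 2 surrogate variables each called 1, Hspa1a (1.35%, 5.81% and 3.44% of all genes in those fits). At an unadjusted p under 0.05, 2 were higher and 1 lower (2.42% and 4.83% of all genes, or 509 and 1017), and 24 of the 44 were higher, with a median log2 fold change of 0.04. The split over all genes became 321 and 1278 by upper-quartile scaling and 293 and 1376 by library size alone. It was 2019 and 2156 with 2 surrogate variables and 682 and 669 with a replicate block. The 3 pathway genes under that p all belonged to the temperature and glucocorticoid inputs. In that role 2 of 8 genes were higher, Rbm3 and Fkbp5. Among the lower ones were Cirbp (-0.35 ± 0.24), Sgk1 (-0.48 ± 0.26) and Tsc22d3 (-0.04 ± 0.21). Rbm3, a cold-inducible RNA-binding protein, was at 195, 158, 193, 186 and 195 CPM in control and 227, 244, 268 and 354 CPM in 2-DG. Every 2-DG library was above every control, at a log2 fold change of 0.56 ± 0.20 (edgeR adjusted p = 0.611). Fkbp5, a glucocorticoid-induced cochaperone, was at 38.2, 24.8, 44.6, 34.7 and 41.9 CPM in control and 55.3, 60.4, 96.1 and 34.7 CPM in 2-DG. Of the 2-DG libraries 3 were above every control, at 0.74 ± 0.29 (edgeR adjusted p = 0.644), a value that was 0.45 without 2-DG replicate 3. Hspa1a, a heat shock chaperone whose count is uncertain because reads can be shared with its near-identical copy Hspa1b, was at 363, 262, 752, 2541 and 6213 CPM in control and 98.5, 148, 19.6 and 359 CPM in 2-DG. The controls spread over more than an order of magnitude and the groups overlapped, at -3.70 ± 1.13 (edgeR adjusted p = 0.536).

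In the remaining roles no gene had an unadjusted p under 0.05. The core activators (Arntl, Npas2 and Arntl2) had 2 of 3 higher. Among ROR receptors and E4BP4 (4 genes, 2 higher) the smallest p was that of Rorb, a ROR receptor expressed in the retina, at -0.47 ± 0.22 (-0.31 without control replicate 2), with 69.5 to 80.7 CPM in 2-DG and 82.3 to 149 CPM in control and no overlap. The PER complex partner Nono (6 genes in the role, 4 higher) was likewise apart, at 0.28 ± 0.18, with 216 to 238 CPM in 2-DG and 156 to 202 CPM in control. Rbm3, Rorb and Nono were the only 3 of the 44 pathway genes whose groups did not overlap, against 2.93% of all genes. The kinases and ubiquitin ligases that set PER and CRY stability had 7 of 8 higher, led by Csnk2a1 (0.43 ± 0.22), and the PAR bZIP factors 2 of 2, led by Tef (0.45 ± 0.43, but 0.22 without 2-DG replicate 3, 0.25 without control replicate 5, 0.72 without 2-DG replicate 4 and 0.14 with a replicate block). The DEC repressors had 0 of 2 higher, led by Bhlhe40 (-0.41 ± 0.27). Clock-controlled genes and inputs had 4 of 7 higher, led by Prkaa1 (0.22 ± 0.18, but 0.13 without 2-DG replicate 4 and 0.01 by limma-voom), a catalytic subunit of AMP-activated kinase. The retinal clock outputs had 1 of 4 higher, led by Drd4 (-0.31 ± 0.65, but 0.55 without control replicate 2, 0.17 by limma-voom, 0.61 with 2 surrogate variables and 0.31 with a replicate block), the dopamine D4 receptor, which was at 7.15 to 92.1 CPM in control.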

How the data were processed

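The authors deposited estimated counts per gene and per transcript, not scaled between libraries. The submitters' processing notes name kallisto and GRCm38, and whether strand entered the counting is not given in the sources used here. Per the labels, a strand-preserving kit for low RNA input was used (4 ng of total RNA, 13 PCR cycles, paired reads of 101 bases). The authors also deposited scaled CPM and a table of their own comparison of 2-DG with control (fold changes and p-values), neither of which was used. The members and gene lists were chosen with earlier results of these data known.

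Estimated counts were rounded (a change of at most 0.00377% per library) and all 21049 genes kept by filterByExpr were scaled by TMM and tested with edgeR 4.0.16 in R 4.3.3 (glmQLFit with legacy=TRUE and robust=FALSE, glmQLFTest, group as the only term, Benjamini-Hochberg adjustment, threshold 0.05). The study names a quasi-likelihood fit of this kind, and the filter and scaling were chosen here. A floor of 3 counts corresponds to 0.0579 to 0.265 CPM. Transcripts were fitted likewise over 62900. Alternatives used DESeq2 1.42.0, limma 3.58.1 and sva 3.50.0, other scalings, no filter, a replicate block and each library left out. 1 alternative, the fit without the 3 libraries of highest mitochondrial share, was added after the data had been seen. Correlations used log2 CPM (prior count 2) minus the group mean, with exact two-sided permutation of libraries within groups. Replicate numbers were not used as pairs. Scripts were tested on simulated data with a common dispersion. The gene fit recovered 65% of 100 log2 changes of size 2 and 98% of 100 of size 3, with 8 false calls. The transcript fit recovered 1% and 6% of them, with 1 false call.

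Symbols came from the gene name table (99.4% of IDs), coordinates and exon lengths from GENCODE M21 on GRCm38, and promoters from RefSeq. The genes named are the members, Arntl and Npas2, other pathway genes with an unadjusted p under 0.05 or the smallest p of their role, the 5 protein-coding genes most like Clock and most like Dbp, and the most abundant transcript of each member. Nono and Rorb are singled out in places for values seen, and Cirbp, Sgk1 and Tsc22d3 are given beside Rbm3 and Fkbp5.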

Additional observations from a re-analysis of the deposited data

Results flagged for a closer look

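A library stood far from the others of its group, by Dixon's gap test on CPM, in 5 of 44 groups examined (the members, Arntl, Npas2 and the other named pathway genes in each condition). Chance gives about 1 in 20 for a single group. These groups share libraries and include genes named for their p, so no excess is read from the count. In 3 of the 5 groups the library was 2-DG replicate 4. Clock was at 129 CPM there, with the next 2-DG library at 242 CPM. Ciart was at 66.3 CPM, with the next at 199 CPM. Npas2 was at 2.52 CPM, with the next at 5.01 CPM. In the other 2 it was control replicate 2, where Rbm3 was at 158 CPM against at least 186 CPM in the other controls, and Drd4 at 92.1 CPM against at most 30.4 CPM. Both libraries belong to the 3 with the highest mitochondrial share, and the part of that share in these values was not tested.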

How the results depend on the processing

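No alternative gave a clock gene an adjusted p under 0.05, and the lowest was 0.171 (Clock, limma-voom). Log2 fold changes of Clock and Nr1d2 stayed above 0 and those of Per1 and Cry1 below 0 in all 19 alternatives; the others changed sign somewhere, always without a call, and the cause was not tested. Scaling moved Per3 to -0.09 (upper quartile) and -0.01 (library size only). Without a filter 2642 genes had an unadjusted p under 0.05, and 1 clock gene transcript. DESeq2 called 284 genes after adjustment, and 1 pathway gene (6 unadjusted). By limma-voom the numbers were 1222 genes (5474 unadjusted), 1 pathway gene (10 unadjusted), 1 clock gene unadjusted and 8 clock genes higher, with Nr1d1 at 0.14, Dbp at 0.03, Ciart at 0.12 and Drd4 at 0.17. With 2 surrogate variables they were 725 genes (4175 unadjusted), 1 pathway gene (8 unadjusted), 2 clock genes unadjusted (Clock and Per1) and 2 higher, with Per2 at -0.26, Per3 at -0.05, Cry2 at -0.15, Npas2 at -0.02 and Drd4 at 0.61. The labels do not tie libraries of the same number, so the numbers were not read as pairs. In a check of pairing, r for numbers 1 to 4 was 0.451, -0.155, 0.102 and 0.205, and 3 of 8 libraries correlated best with their own number. These values are on another scale than r between libraries, which ran from 0.868 to 0.977. With the replicate block 0 genes passed the adjustment, 1351 were under an unadjusted p of 0.05 and 2 clock genes were higher, with Per2 at -0.13, Per3 at -0.20, Cry2 at -0.11 and Drd4 at 0.31. Without the 3 libraries of highest mitochondrial share, 206 genes passed (2725 unadjusted), 5 pathway genes were under an unadjusted p of 0.05, the groups of 1 clock gene (Clock) did not overlap, Ciart was at 0.33, Npas2 at -0.11 and Drd4 at 0.73, 4 of 7 genes ran opposite to Clock and 0 pairs passed, the smallest p that 36 arrangements allow being 0.0278.

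Leaving out 1 library at a time gave 0 to 16 genes after adjustment (16 without control replicate 2, 2 without 2-DG replicate 4), 921 (without control replicate 4) to 2721 (without 2-DG replicate 4) unadjusted, 3 (without 2-DG replicate 1 or 2) to 6 clock genes higher, 0 to 1 clock genes apart (Clock, without 2-DG replicate 4), 2 to 5 pathway genes (5 without control replicate 1) and 0 to 2 clock gene transcripts unadjusted (2 without 2-DG replicate 4). The ranges of log2 fold changes that crossed 0 were -0.17 to 0.42 for Per2, -0.15 to 0.25 for Per3, -0.23 to 0.23 for Nr1d1, -0.04 to 0.51 for Npas2 and -0.57 to 0.55 for Drd4. The other members ranged from -0.54 to -0.21 (Per1), -0.27 to -0.05 (Cry1), 0.01 to 0.48 (Cry2), 0.36 to 0.74 (Clock), 0.12 to 0.42 (Nr1d2), -0.32 to -0.03 (Dbp) and -0.41 to -0.01 (Ciart). The value nearest 0 came without 2-DG replicate 4 for Per1, Cry1, Dbp and Ciart, without control replicate 2 for Clock and Nr1d2, and without control replicate 5 or 2-DG replicate 1 for Cry2. Without control replicate 2, Dbp was at -0.06 and Ciart at -0.05. Pairs of clock genes passing numbered 0 to 7, with 7 without control replicate 1, 3 without control replicate 2 and 0 otherwise. The smallest p of the permutation test rises from 0.000347 with 9 libraries to 0.00139 or 0.00174 with 8. Genes opposite to Clock numbered 0 (without control replicate 1, 2 or 3) to 3 (Per3, Dbp and Ciart, without 2-DG replicate 4). By library size only they numbered 0, and without the 2 libraries farthest from the median of Clock 2, with 0 pairs passing.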
